A study of Mus musculus with 8 samples.

Results

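The Nr4a orphan nuclear receptors *Nr4a1*, *Nr4a2* and *Nr4a3* are 3 of the 45706 genes measured by bulk RNA-seq in cultured mouse hippocampal neurons. They were chosen by name as the whole family, and their 11 transcripts are among 109617 transcripts quantified. The neurons came from C57/Bl6 wild-type embryos at embryonic day 18 and were treated for 4 h with vehicle (H2O) or with 1 µM melanin-concentrating hormone (MCH) peptide, with 4 wells (replicates 1 to 4) per treatment. The wells came from 2 cultures. Both cultures were balanced for treatment, since the paper describes 2 vehicle wells and 2 MCH wells for either one. Which replicate belonged to which culture is not given in the sources used here. *P* values therefore measure the spread between wells, which may be technical. The sample labels carry an Alzheimer's disease tag beside the wild-type genotype. The question of the comparison was which transcripts respond to MCH in these neurons.

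NR4A proteins are nuclear receptors without a known hormone in the classical sense, and their activity is set largely by how much of each protein is made. They are products of immediate early genes, which are transcribed within minutes of calcium or cAMP signals, mainly through the factor CREB bound at cAMP response elements (CRE) of their promoters. The proteins bind DNA as monomers at the sequence AAAGGTCA, and *Nr4a1* and *Nr4a2* also pair with retinoid X receptors. In the hippocampus the family is known for a role in long-term memory. MCH is a hypothalamic peptide that acts through the G protein-coupled receptor encoded by *Mchr1*.

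The sequence before each start site is shown because all 3 genes carry the CRE core TGACG, or its reverse complement CGTCA, 4 times in the 300-base window from 250 bases before to 50 bases after the RefSeq start. The sequences are from RefSeq on GRCm38.p6, read 5′ to 3′ on the gene's own strand, with each CRE core in capitals. The *Nr4a1* part is chr15:101266596-101266845 on the plus strand. It lies directly before the first base of the only *Nr4a1* transcript in the tables, within an intron of a longer annotated transcript that was not quantified. The *Nr4a2* part is chr2:57124004-57124253 on the minus strand, and the *Nr4a3* part is chr4:48045055-48045152 on the plus strand. Both are before the annotated span of their gene and overlap no other annotated gene, and the *Nr4a3* part stops at the first annotated base of the gene.
Nr4a1: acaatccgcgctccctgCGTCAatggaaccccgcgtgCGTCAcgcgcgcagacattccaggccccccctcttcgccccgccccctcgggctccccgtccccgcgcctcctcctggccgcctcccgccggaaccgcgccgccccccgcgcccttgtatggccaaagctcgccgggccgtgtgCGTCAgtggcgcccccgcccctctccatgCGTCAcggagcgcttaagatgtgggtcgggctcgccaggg
Nr4a2: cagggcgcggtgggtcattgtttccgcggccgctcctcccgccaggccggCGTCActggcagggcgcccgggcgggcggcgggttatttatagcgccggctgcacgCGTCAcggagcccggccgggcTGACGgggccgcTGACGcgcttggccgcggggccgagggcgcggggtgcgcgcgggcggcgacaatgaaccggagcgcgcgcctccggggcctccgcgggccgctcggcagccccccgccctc
Nr4a3: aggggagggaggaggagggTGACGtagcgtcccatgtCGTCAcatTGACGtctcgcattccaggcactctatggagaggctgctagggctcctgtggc

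The CRE cores of *Nr4a1* began at positions -233, -213, -69 and -40 from the start site, and those of *Nr4a2* at -200, -144, -123 and -111. *Nr4a3* had them at -231, -213, -205 and -147, of which the last is not in the printed part. That last core lies inside the transcript *Nr4a3*-201, whose annotated start is before the RefSeq start. The coding transcripts *Nr4a2*-201, *Nr4a2*-202 and *Nr4a3*-203 start downstream of these windows, and the sequence before their starts was not examined. Among 32851 windows of the same length, 20.8% held at least 1 CRE core on either strand and 0.231% held at least 4. The 3 windows are rich in G and C (72.3%, 81.7% and 64.7% for *Nr4a1*, *Nr4a2* and *Nr4a3*, against a median of 52.7% over all windows). Among the 6056 windows with a GC content in that range, 0.578% held 4 or more CRE cores. The full palindrome TGACGTCA, of which the core is a part, was in none of the 3 windows and in 1.79% of all windows. Neither the NR4A binding sequence AAAGGTCA (1.51% of all windows) nor a CArG box, the sequence bound by serum response factor (1.63%), was found in them. TATAAA was found once in the *Nr4a2* window and in 13.6% of all windows. Such matches describe letters and not bound factors.

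All 3 genes had lower mean levels in MCH than in vehicle, and *Nr4a1* had the largest difference. On the scale of CPM (counts scaled to a common library size), *Nr4a1* averaged 48.3%, *Nr4a2* 76.2% and *Nr4a3* 81.5% of vehicle. In bulk samples, fewer cells that express a gene and less RNA per cell cannot be told apart. The plot of levels by well shows the 8 wells for each gene.

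**Figure D1:**
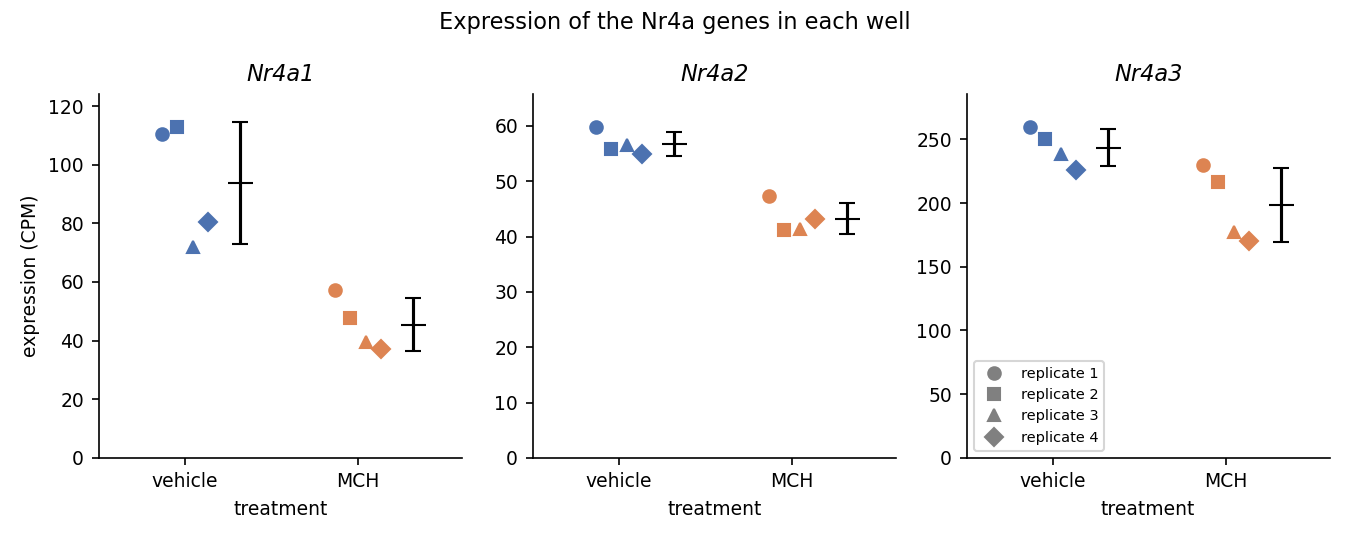
Expression in CPM (y axis, from 0) of *Nr4a1*, *Nr4a2* and *Nr4a3* in vehicle and MCH wells, with 1 symbol per replicate and the mean ± SD (n = 4) beside them. All MCH wells lie below all vehicle wells for *Nr4a1* and *Nr4a2*, and for *Nr4a3* MCH replicate 1 lies above vehicle replicate 4.

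*Nr4a1* (ENSMUSG00000023034, chr15:101254269-101274795, plus strand, GRCm38) encodes Nur77, which is described as a regulator of dendritic spines in hippocampal neurons. Its level in vehicle replicates 1 to 4 was 110, 113, 71.9 and 80.4 CPM, and in MCH replicates 1 to 4 it was 57.2, 47.6, 39.4 and 37.2 CPM. The treatments did not overlap, and replicates 1 and 2 were above replicates 3 and 4 in both. The mean was 93.9 ± 20.8 CPM in vehicle and 45.4 ± 9.10 CPM in MCH (SD, n = 4 each). With edgeR's quasi-likelihood test without a block, the log2 fold change was -1.05 (SE 0.19, 95% interval -1.49 to -0.60) with an adjusted *P* of 0.126, so that *Nr4a1* was not called. It had the 14th lowest log2 fold change of the 14962 genes tested and the 78th smallest *P*. Nearly absent genes take part in the order by fold change. *Gm10273*, for example, had a lower log2 fold change of -4.39 at 0.450 CPM in vehicle. When replicates 1 and 2 and replicates 3 and 4, sets found from these same data, were fitted as blocks, the log2 fold change was -1.04. The adjusted *P* of that edgeR fit was 2.05e-07. With the replicate number as a block it was -1.04 with an adjusted *P* of 1.48e-06, and DESeq2 without a block gave an adjusted *P* of 1.22e-06.

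*Nr4a2* (ENSMUSG00000026826, chr2:57106830-57124003, minus strand) encodes Nurr1, best known for the development and upkeep of midbrain dopamine neurons. Vehicle replicates 1 to 4 had 59.9, 55.8, 56.5 and 54.9 CPM, and MCH replicates 1 to 4 had 47.2, 41.3, 41.3 and 43.2 CPM. These values did not overlap, and the wells of each treatment lay close together. The means were 56.8 ± 2.17 and 43.2 ± 2.82 CPM (SD, n = 4 each). *Nr4a2* fell with MCH, with a log2 fold change of -0.39 (SE 0.05, 95% interval -0.51 to -0.27) and an adjusted *P* of 0.0249 in edgeR without a block. It was the 1 member of 3 called there, where 0.207% of all genes tested were called lower (35 genes called in all, 0.234%, with 0.0267% called higher). Its fold change was the 282nd lowest and its *P* the 19th smallest. With the 2 sets of replicates as blocks, the adjusted *P* was 2.28e-05, and with the replicate number as a block it was 1.79e-05. Leaving out any 1 well other than MCH replicate 1 took the adjusted *P* without a block to between 0.0758 and 0.127, and without MCH replicate 1 it was 0.0184.

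*Nr4a3* (ENSMUSG00000028341, chr4:48045153-48086447, plus strand) encodes NOR-1. It had 260.0, 249.9, 238 and 226 CPM in vehicle replicates 1 to 4, and 229.9, 216, 177 and 170.4 CPM in MCH replicates 1 to 4. MCH replicate 1 was above vehicle replicate 4, so that the treatments overlapped by that pair. The means were 244 ± 14.7 and 198 ± 29.2 CPM (SD, n = 4 each). Without a block, the log2 fold change was -0.30 (SE 0.10, 95% interval -0.52 to -0.07) with an unadjusted edgeR *P* of 0.0154 and an adjusted *P* of 0.438. With the 2 sets of replicates as blocks, it was -0.30 with an adjusted *P* of 0.00252, and with the replicate number as a block 0.00218.

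Every MCH well was below every vehicle well for 2 of the 3 members, and for 2.96% of all genes tested, and the treatments did not overlap in either direction for 6.03%. In the fit with the 2 sets of replicates as blocks, all 3 members were called lower, where 2.61% of all genes were called lower and 1.85% higher (4.46% in all). With the replicate number as a block, all 3 were again called lower, against 2.25% of all genes called lower and 1.73% higher (3.98% in all). DESeq2 without a block called *Nr4a1* and *Nr4a2* lower (adjusted *P* = 1.11e-06 for *Nr4a2*) and not *Nr4a3* (adjusted *P* = 0.162), where 0.648% of all genes were called lower and 0.488% higher (1.14% in all). The plot of fold changes sets the fits side by side. By an exact two-sided permutation test of log2 CPM over the 70 assignments of wells to treatments, the differences were -1.04 for *Nr4a1* and -0.39 for *Nr4a2*, each with *P* = 0.0286, the smallest value possible. For *Nr4a3* the difference was -0.31 (exact permutation *P* = 0.0571). An exact permutation only within replicates 1 and 2 and within replicates 3 and 4 gave *P* = 0.0556 for each of the 3, the smallest value that the 36 assignments allow.

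**Figure D2:**
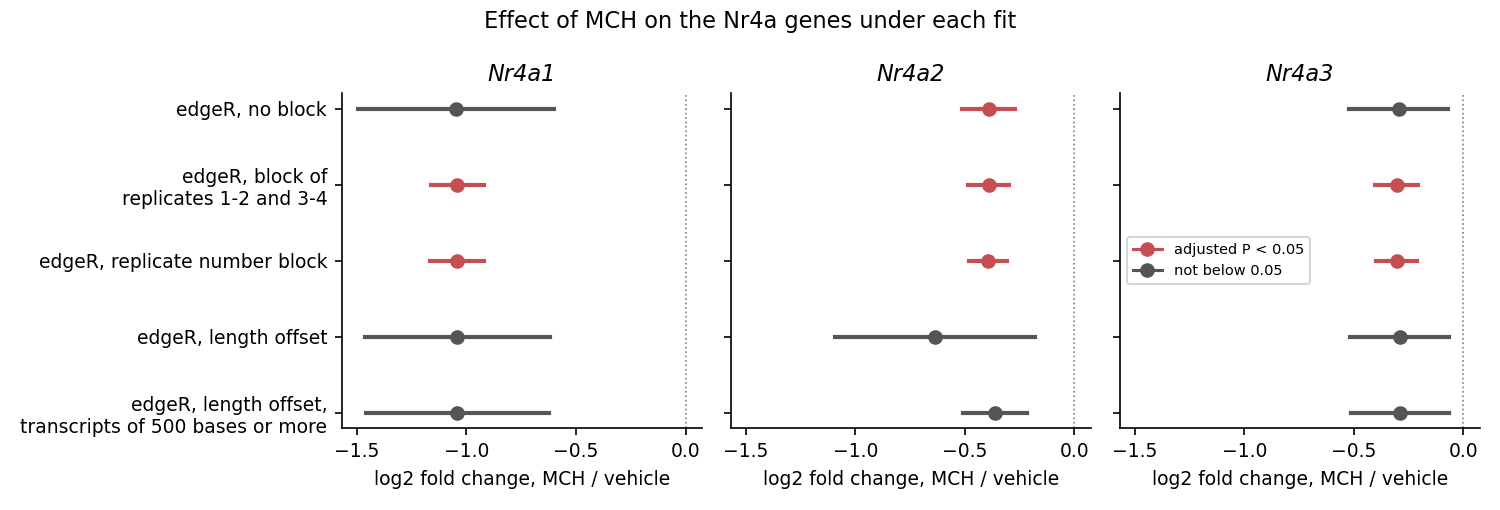
Log2 fold change of MCH over vehicle (x axis) for each member under 5 edgeR fits (y axis), with lines for 95% intervals and red for an adjusted *P* below 0.05. The point of *Nr4a1* stays near -1.04 and that of *Nr4a3* near -0.30 in every fit, whereas that of *Nr4a2* moves from -0.39 to -0.64 with the length offset.

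Replicates 1 and 2 stood apart from replicates 3 and 4 in both treatments, on a first principal component with 59.8% of the variance. These sets are balanced for treatment, as the cultures were, but whether the sets are the cultures was not tested. Summed astrocyte markers were 344 to 466 CPM in replicates 1 and 2 and 1512 to 1719 CPM in replicates 3 and 4, and summed neuronal markers were 8554 to 8958 and 7764 to 7988 CPM. All 9 neuronal markers were detected, and microglia markers summed to 5.47 to 11.4 CPM. The 8 oligodendrocyte lineage markers, of which *Sox10* and *Mog* were at 0 in every well, summed to 57.3 to 67.9 CPM in replicates 1 and 2 and to 126 to 147 CPM in replicates 3 and 4. The 10 markers of fibroblasts or vessels summed to 22.3 to 28.0 and 59.9 to 66.0 CPM. The levels of the members in these sets are given with no test. In vehicle, *Nr4a1* was higher in replicates 1 and 2 than in replicates 3 and 4 by 0.55 log2 CPM, *Nr4a3* by 0.14 and *Nr4a2* by 0.05. The corresponding differences in MCH were 0.45, 0.36 and 0.06 log2 CPM. Astrocyte markers summed to 416 to 1585 CPM in vehicle and 344 to 1719 CPM in MCH. The part of cell makeup in the differences between the sets was not tested.

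The MCH difference had the same sign in both sets of wells. For *Nr4a1* it was -1.10 log2 CPM in replicates 1 and 2 and -0.99 in replicates 3 and 4. *Nr4a2* gave -0.39 and -0.40, and *Nr4a3* gave -0.19 and -0.42. Paired by replicate number, the differences for replicates 1 to 4 were -0.95, -1.24, -0.87 and -1.11 for *Nr4a1*. They were -0.34, -0.43, -0.45 and -0.35 for *Nr4a2*, and -0.18, -0.21, -0.43 and -0.41 for *Nr4a3*. Each member was lower in MCH in 4 of 4 such pairs. For *Nr4a1* and *Nr4a2* any pairing of the wells gives this, because the treatments did not overlap. The share of all genes lower in every pair was not counted.

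The difference between treatments was larger for *Nr4a1* than for each of the other members. The log2 ratio of *Nr4a1* to *Nr4a2* counts within a well was 0.70 ± 0.31 in vehicle (0.35 to 1.02) and 0.05 ± 0.23 in MCH (-0.21 to 0.28), a difference of -0.65 (exact permutation *P* = 0.0286, n = 4 each). For *Nr4a1* to *Nr4a3* it was -1.40 ± 0.26 in vehicle and -2.14 ± 0.09 in MCH, a difference of -0.74 (exact permutation *P* = 0.0286). The ratio of *Nr4a3* to *Nr4a2* was 2.10 ± 0.05 in vehicle and 2.19 ± 0.18 in MCH, and its difference of 0.09 did not pass (exact permutation *P* = 0.4). These are the 3 possible pairs, and the *P* values are not adjusted. Within the 2 sets of wells, the differences were -0.71 and -0.59 for *Nr4a1* to *Nr4a2* and -0.90 and -0.57 for *Nr4a1* to *Nr4a3*, and the exact permutation test within sets gave *P* = 0.0556, its smallest value, for both. For *Nr4a3* to *Nr4a2* they were 0.20 and -0.02.

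**Figure D3:**
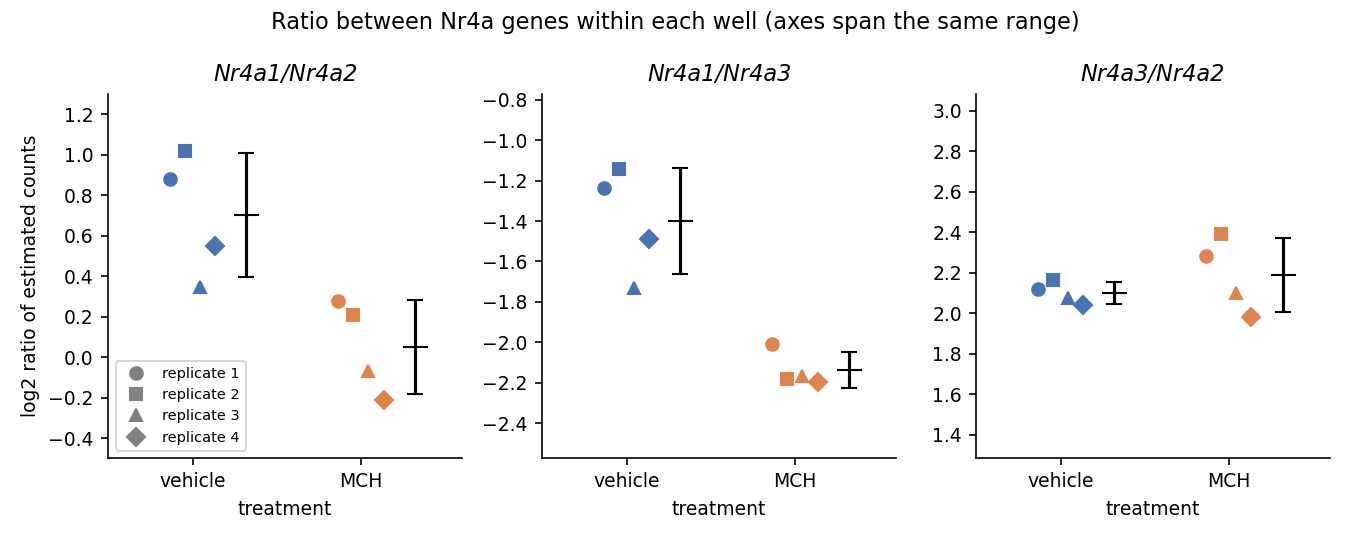
Log2 ratio of estimated counts between members in each well (y axes of equal span), with 1 symbol per replicate and the mean ± SD (n = 4). Both ratios with *Nr4a1* are lower in every MCH well than in every vehicle well, whereas for *Nr4a3* to *Nr4a2* the treatments overlap.

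TPM values, which account for transcript length, place the genes on one scale. Here *Nr4a3* had 76.4 ± 4.86 TPM in vehicle and 63.2 ± 8.80 in MCH, and *Nr4a1* had 71.1 ± 15.2 and 34.9 ± 6.95 TPM (SD, n = 4 each). *Nr4a1* ranged from 55.1 to 84.7 TPM and *Nr4a3* from 70.7 to 82.2 TPM in vehicle, so that they overlapped. In MCH they did not, with 28.8 to 44.1 TPM for *Nr4a1* and 55.3 to 73.4 TPM for *Nr4a3*.

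For *Nr4a2*, TPM depended on 1 short transcript. Over all its transcripts the gene had 55.4 ± 9.38 TPM in vehicle and 36.1 ± 9.61 in MCH. *Nr4a2*-204, a processed transcript of 182 bases with a mean effective length of 7.2 bases, received 0 to 3 reads per well, yet up to 27.3 TPM. Its vehicle wells had 27.3, 25.3, 25.2 and 8.78 TPM, and its MCH wells 7.65, 8.96, 0 and 21.7 TPM. Without transcripts under 500 bases, an alternative added after the data were seen, *Nr4a2* had 33.7 ± 0.988 TPM in vehicle and 26.6 ± 2.14 in MCH, with no overlap (32.8 to 35.0 and 24.4 to 29.5 TPM). The average effective length of *Nr4a2*, which includes this transcript, also enters fits that correct for length. With such an offset, the log2 fold change of *Nr4a2* in edgeR was -0.64 with an adjusted *P* of 0.565, and without transcripts under 500 bases it was -0.36 with an adjusted *P* of 0.138. The *Nr4a1* to *Nr4a2* log2 ratio changed by -0.38 in TPM over all transcripts (exact permutation *P* = 0.229) and by -0.67 without the short ones (exact permutation *P* = 0.0286).

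**Figure D4:**
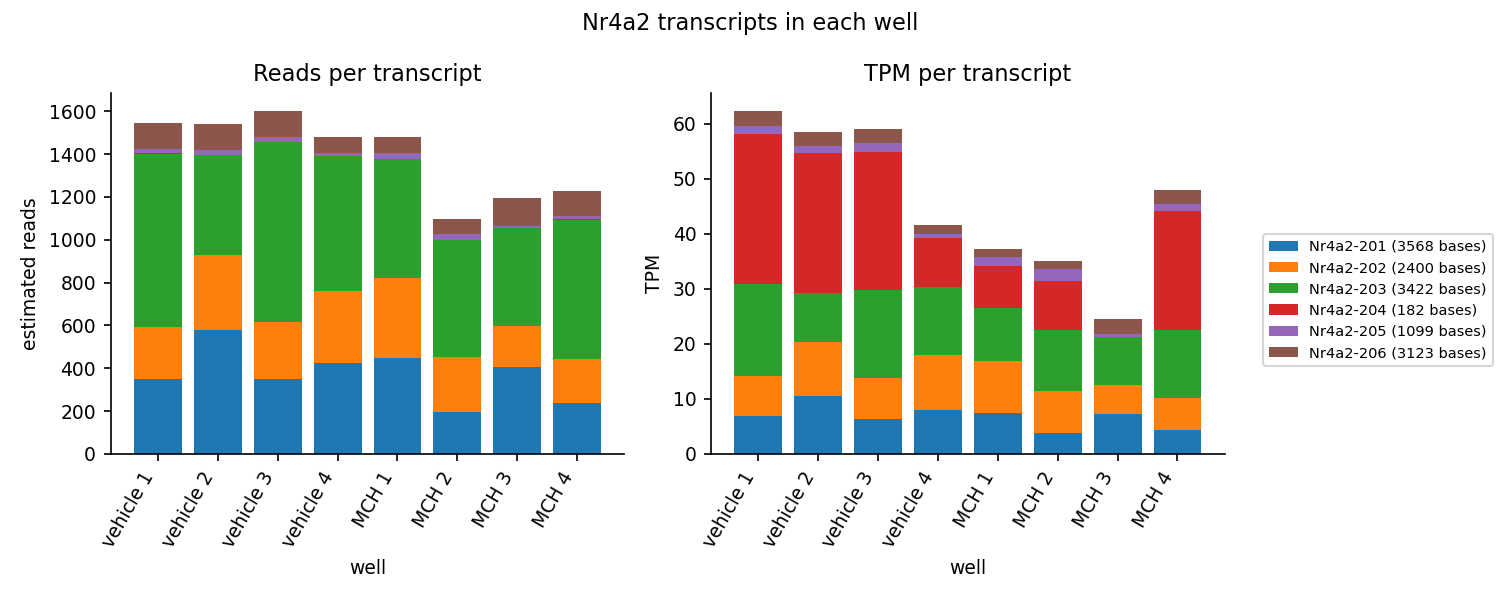
Estimated reads (left y axis) and TPM (right y axis) of the 6 *Nr4a2* transcripts, stacked for each of the 8 wells. The 182-base *Nr4a2*-204 is not visible among the reads but makes up to 27.3 TPM of the right-hand bars.

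With transcripts of at least 500 bases, *Nr4a1* made up 38.9% ± 4.38 of the summed TPM of the 3 genes in vehicle and 27.9% ± 1.63 in MCH. *Nr4a3* went from 42.3% ± 2.61 to 50.7% ± 0.882, and *Nr4a2* from 18.8% ± 1.81 to 21.5% ± 1.77. The ranges of the treatments did not overlap for *Nr4a1* and *Nr4a3*, and they overlapped for *Nr4a2*. The sum over the 3 genes was 181 ± 19.7 TPM in vehicle and 125 ± 17.5 in MCH.

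Among 49 nuclear receptor genes ordered by mean TPM in vehicle, also without transcripts under 500 bases, *Nr4a3* took rank 2, *Nr4a1* rank 3 and *Nr4a2* rank 9. *Thra*, the thyroid hormone receptor alpha, was first with 1019 ± 24.9 TPM. *Nr4a3*, *Nr4a1* and the next gene, *Nr2f1* (69.1 ± 8.99 TPM), lay within their spread, as did *Nr4a2* and its neighbours *Esrra* (33.8 ± 4.50 TPM) and *Nr3c2* (31.5 ± 4.41 TPM). In MCH, *Nr4a3* was at rank 3, *Nr4a1* at rank 10 and *Nr4a2* at rank 11. Over all transcripts, *Nr4a3*, *Nr4a1* and *Nr4a2* took ranks 2, 3 and 7 in vehicle and ranks 5, 11 and 8 in MCH, and the neighbours of *Nr4a2* in vehicle were *Nr3c2* (59.5 ± 12.1 TPM) and *Rxrb* (50.9 ± 2.47 TPM).

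At the level of transcripts, 0 of 33527 were called in edgeR without a block, where 1476 had an unadjusted *P* below 0.05, and 0 with the replicate number as a block. With the 2 sets of replicates as blocks, 6 transcripts were called (0.0179%, with 0.0149% called lower), of which *Nr4a1*-201 was 1. Its log2 fold change was -1.05 without a block (adjusted *P* = 0.407) and -1.04 with it (adjusted *P* = 0.0423). This was the only one of 4 annotated *Nr4a1* transcripts in the tables, so that all reads of the gene were assigned to it.

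*Nr4a2* reads were divided mainly among 3 protein-coding transcripts. *Nr4a2*-203 held 44.4% ± 10.4 of the reads of the gene in vehicle and 44.6% ± 7.82 in MCH, *Nr4a2*-201 held 27.6% ± 7.21 and 25.4% ± 7.93, and *Nr4a2*-202 held 19.5% ± 3.89 and 20.4% ± 4.59 (SD, n = 4 each). The shares by transcript thus moved by less than their spread. Log2 fold changes were -0.40 for *Nr4a2*-203, -0.51 for *Nr4a2*-201 and -0.32 for *Nr4a2*-202, each with an adjusted *P* of 1.00 in edgeR without a block and with a 95% interval that included 0. *Nr4a2*-206, annotated as a target of nonsense-mediated decay, held 7.10% ± 1.40 and 7.91% ± 2.58 of the reads.

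For *Nr4a3*, *Nr4a3*-201 held 78.9% to 93.4% of the reads in vehicle and 75.6% to 99.97% in MCH. The shorter coding transcript *Nr4a3*-203 held the rest, with 6.63% to 21.1% in vehicle and 0% to 24.4% in MCH. The split between them varied more among wells of 1 treatment than between treatments. The other two *Nr4a3* transcripts had at most 3.58 estimated reads in any well.

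Of the retinoid X receptors that pair with NR4A proteins, *Rxra* had 39.4 ± 3.48 CPM in vehicle and 39.5 ± 1.08 in MCH, *Rxrb* had 54.5 ± 3.82 and 56.0 ± 0.569 CPM, and *Rxrg* had 4.93 ± 1.11 and 4.92 ± 0.619 CPM. None passed the test. *Mchr1*, the receptor of MCH, was detected at 9.91 ± 0.820 and 9.70 ± 0.297 CPM (log2 fold change -0.03, adjusted *P* = 0.994 in edgeR). *Fos*, an immediate early gene taken as a reference, fell from 62.7 ± 7.09 to 33.4 ± 2.36 CPM, with a log2 fold change of -0.91 (adjusted *P* = 0.00492), beside -1.05, -0.39 and -0.30 for *Nr4a1*, *Nr4a2* and *Nr4a3*.

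The 46 other nuclear receptors were listed to set the family beside its relatives. Of these, 34 passed the filter on low counts, and their median log2 fold change was -0.01, with a range of -0.46 to 0.56, beside a median of -0.003 over all genes tested. In edgeR without a block 0 of the 34 were called, 4 had an unadjusted *P* below 0.05 (11.8%, against 8.5% of all genes tested), and DESeq2 and limma called 0. In the fit with both sets of replicates as blocks, *Nr1d1*, a repressor of the circadian clock, was higher in MCH (log2 fold change 0.31, adjusted *P* = 0.000328), as were *Nr3c2*, the mineralocorticoid receptor (0.23, adjusted *P* = 0.0115), and *Nr2c2* (0.14, adjusted *P* = 0.0204). *Rara*, a retinoic acid receptor, was lower (-0.23, adjusted *P* = 0.0284). Thus 3 of the 34 were called higher and 1 lower, where 1.85% of all genes were called higher and 2.61% lower. The log2 fold changes of *Nr4a1* and its 34 relatives thus did not overlap, whereas those of *Nr4a2* and *Nr4a3* lay inside the range of the relatives.

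Upstream of the family, 28 genes that act on Nr4a transcription were listed, and all passed the filter. Their median log2 fold change was 0.01, and 14 of 28 were below 0. Without a block 0 were called by edgeR and limma, and DESeq2 called *Hdac5* (adjusted *P* = 0.0254). In edgeR 7 had an unadjusted *P* below 0.05 (25%, against 8.5% of all genes tested). Of the 28, 3 fell and 1 rose in the fit with both sets of replicates as blocks. That fit called 2.61% of all genes lower and 1.85% higher. *Crem*, a CREB relative with repressor forms, had a log2 fold change of -0.31 (adjusted *P* = 0.0063). The class IIa histone deacetylases, which bind MEF2 factors, were called in both directions. *Hdac5* fell by 0.23 (adjusted *P* = 7.53e-05) and *Hdac9* fell by 0.28 (adjusted *P* = 3.34e-05) on the log2 scale, whereas *Hdac4* rose by 0.20 (adjusted *P* = 0.0269) and did not pass with the replicate number as a block (adjusted *P* = 0.0565).

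Of 25 partners and cofactors of NR4A proteins, 24 passed the filter, with a median log2 fold change of -0.01 and a range of -0.12 to 0.13. In edgeR without a block 0 were called, and DESeq2 and limma called 0. In edgeR 2 had an unadjusted *P* below 0.05 (8.33%, against 8.5% of all genes tested). The coactivator *Ncoa1* was the 1 gene called with the 2 sets of replicates as blocks (0.13, adjusted *P* = 0.0205). That fit called 4.46% of all genes.

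Genes described as NR4A targets had a median log2 fold change of -0.11 over the 23 of 29 that passed the filter. Of the 23, 18 were below 0, beside 7637 of 14962 over all genes. The median and this count include genes near the floor with large errors. Among them were *Pomc* (0.422 CPM in vehicle, SE 0.36), *Slc2a4* (0.489, SE 0.54), *Drd2* (0.700, SE 0.28) and *Slc18a2* (0.846, SE 0.31). In edgeR without a block 0 were called, with 3 at an unadjusted *P* below 0.05 (13%, against 8.5% of all genes tested). Limma called 0, and DESeq2 called *Nrn1* (adjusted *P* = 9.71e-05). With the 2 sets of replicates as blocks, 3 of the 23 fell, where 2.61% of all genes were called lower. *Bdnf*, a neurotrophin, had a log2 fold change of -0.38 (336 ± 47.4 to 258 ± 33.5 CPM, adjusted *P* = 1.35e-07), *Vip*, a neuropeptide of interneurons, of -0.23 (adjusted *P* = 0.0225), and *Nrn1*, a neurite outgrowth protein, of -0.16 (adjusted *P* = 0.0016). Several of these genes, *Bdnf* among them, are also activity-regulated. All 7 inhibitory neuron markers had log2 fold changes below 0 (median -0.12), and 2 of them, *Vip* and *Gad1*, were called lower with the same blocks. Their part in the values of *Vip* was not tested.

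**Figure D5:**
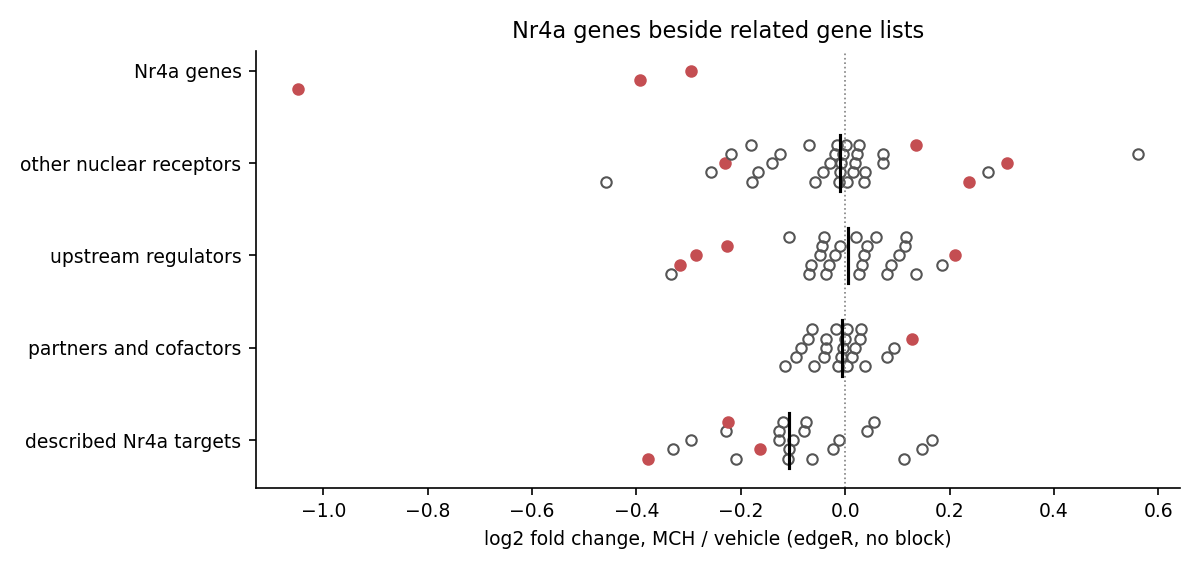
Log2 fold change of MCH over vehicle (x axis, edgeR without a block) for the Nr4a genes and 4 lists of related genes (y axis), 1 circle per gene that passed the filter, with a bar at the median of each list. Filled red circles had an adjusted *P* below 0.05 with replicates 1 and 2 and replicates 3 and 4 as blocks, and *Nr4a1* at -1.05 is the lowest of all genes shown.

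Across the 8 wells, the members correlated with one another, with Pearson's r of log2 CPM of 0.92 for *Nr4a1* and *Nr4a2*, 0.91 for *Nr4a1* and *Nr4a3*, and 0.82 for *Nr4a3* and *Nr4a2*. The correlations of their deviations from the treatment means were 0.55, 0.82 and 0.57. These points share the treatment and the set of wells, and they are given as a description.

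The 5 genes most like each member by the same r were picked as the highest among all genes tested, so that high values follow from the choice. They are given as a description. Their r of deviations from the treatment means was 0.933 to 0.978 for *Nr4a1*, 0.725 to 0.910 for *Nr4a2* and 0.946 to 0.965 for *Nr4a3*. For *Nr4a1* they were *Ing2* (0.995), *Cln8* (0.993), *Hdac5* (0.988), *Per1* (0.987) and *Dusp4* (0.986), with log2 fold changes from -0.62 for the clock gene *Per1* to -0.15 for *Cln8*. For *Nr4a2* they were *Arc* (0.988), *Gmeb2* (0.984), *Gm10273* (0.977), *Ipmk* (0.973) and *Rassf8* (0.973). *Arc*, a synaptic immediate early gene, had a log2 fold change of -0.59 (adjusted *P* = 0.00492 in edgeR), and *Gm10273* was nearly absent, at 0.450 CPM in vehicle and 0.0160 in MCH. For *Nr4a3* they were *Atmin* (0.969), *Spata5* (0.965), *Bahd1* (0.965), *Zfp948* (0.963) and *Mgat2* (0.956), with log2 fold changes between -0.27 and -0.07, none of them called.

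The 4 CRE cores were set beside the response of other genes with 1 RefSeq window each. Of 49 such genes tested with 4 or more cores, 46 were not members. Of these 46, 2 (*Ctu2* and *Trp53inp2*, 4.35%) were called lower with the 2 sets of replicates as blocks, beside 3.32% of genes with 1 to 3 cores, 2.22% of genes without one and 2.61% of all genes with 1 window. Their median log2 fold change was -0.05, beside -0.02 for 2832 genes with 1 to 3 cores, 0.001 for 6040 genes without one and -0.01 for all 8921 genes.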

How the data were processed

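Bulk RNA-seq of 8 wells was analysed. The authors quantified poly-A libraries with nf-core/rnaseq and salmon on GRCm38, and the deposited gene table holds estimated counts (9.13% of values not whole), 26083936 to 31844861 per well. The deposited transcript tables hold estimated counts, effective lengths and TPM, in which salmon as run by the authors corrected for transcript length and library size. The submitters' processing notes name R 4.0.3 and DESeq2 1.13.0, whereas the paper's reporting summary gives a different DESeq2 version. GENCODE vM21 on GRCm38 named 45143 of 45706 genes (98.8%), all 3 members among them, and may not be the authors' annotation.

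Counts were rounded and tested in R 4.3.3 with edgeR 4.0.16 (TMM, count minimum 10, total minimum 15, quasi-likelihood test without a block, Benjamini–Hochberg adjustment over 14962 genes, threshold 0.05). The fits were also run on simulated counts that held changed genes but no difference between sets of wells. That simulation therefore does not cover the difference between sets seen in these data. Alternatives were DESeq2 1.42.0, limma 3.58.1 (voom), other scalings, no filter, a length offset, blocks and leaving out each well. Replicate numbers were taken from the titles. Same-numbered wells deviated together (r 0.445 to 0.545, minimum for pairing 0.1), and so did other wells of the same set (0.475 to 0.521). Across sets r was -0.548 to -0.438. The deviations were from the treatment means, so that negative values across sets follow from the positive ones. The pairing thus comes from the data and not from the labels. The data do not tell same-numbered wells from other wells of the same set. The sets are replicates 1 and 2 and replicates 3 and 4, as separated in both treatments by the first principal component. The treatment mean of each gene was subtracted from log2 CPM before that component was computed. The sets were thus defined from the same values that were tested. *P* values with the sets as blocks may therefore be too small, and by how much was not tested. Fold changes are log2, and log2 CPM used a prior count of 2. The 3 members matched the RefSeq promoter table.

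The named genes are the members, listed genes called in edgeR without or with a block, *Rxra*, *Rxrb*, *Rxrg*, *Mchr1*, *Fos* and the 5 genes most correlated with each member. *Ctu2*, *Trp53inp2*, *Thra*, *Nr2f1*, *Esrra*, *Pomc*, *Slc2a4*, *Drd2* and *Slc18a2* were named after their values were seen. Members and lists were chosen with earlier results of these data known. The other experiments of the study were not analysed here.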

Additional observations from a re-analysis of the deposited data

Results flagged for a closer look

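In MCH replicate 1, the log2 ratio of *Nr4a1* to *Nr4a3* counts was -2.01, whereas the other three MCH wells lay between -2.20 and -2.17. By Dixon's criterion for 4 values (ratio 0.848), this well stood apart from its group. In all, 24 groups of 4 values were checked in this way, of which chance flags about 1 in 20. Leaving out each well in turn gave a difference between MCH and vehicle in this ratio of -0.85 to -0.65.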

How the results depend on the processing

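No alternative changed the direction of any fold change of the 3 genes. With a replicate block, *Nr4a1* (-1.04) and *Nr4a3* (-0.30) became called, *Nr4a2* stayed called, and 596 genes were called in place of 35. With the 2 sets of wells as blocks the values were -1.04 for *Nr4a1*, -0.30 for *Nr4a3* and 668 genes. DESeq2 gave -1.05 for *Nr4a1* and 170 genes, and DESeq2 with the sets as blocks, added after the data were seen, gave -1.04, -0.30 for *Nr4a3* and 596 genes. A length offset took *Nr4a2* to -0.64 (7 genes called). After the data were seen, the offset was also fitted without transcripts under 500 bases, with *Nr4a2* at -0.36 and 11 genes, and with the sets as blocks, with *Nr4a2* at -0.63, *Nr4a1* called at -1.03 and *Nr4a3* not called at -0.30 (adjusted *P* = 0.0652). *Nr4a2* was not called in any of these 3 fits with an offset. Without filter, with other scalings or with limma voom, 28 to 46 genes were called and no member changed its call. Within sets, the exact tests of *Nr4a1* (-1.04) and *Nr4a2* (-0.39) had 0.0556 as their smallest *P*. By TPM, the *Nr4a1* to *Nr4a2* difference was -0.38. Why the other calls changed was not tested.

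Leaving out each well in turn gave -1.18 to -0.94 for *Nr4a1* (called in 0 of 8), -0.43 to -0.36 for *Nr4a2* (called in 1 of 8), -0.37 to -0.22 for *Nr4a3* (called in 0 of 8) and 4 to 29 called genes, with 4 without vehicle replicate 4. The differences between members ranged from -0.77 to -0.54 for *Nr4a1* to *Nr4a2*, from -0.85 to -0.65 for *Nr4a1* to *Nr4a3* and from 0.02 to 0.16 for *Nr4a3* to *Nr4a2*. With 4 wells per treatment from 2 cultures, and with the culture of each well not given, spread between cultures cannot be told apart from spread between wells. Depth did not limit *Nr4a1*, *Nr4a2* or *Nr4a3*, which had at least 1060 reads in each well, but *Nr4a2*-204 had at most 3.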
